A study of Homo sapiens with 20 samples.

Results

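Transcript levels of the enzymes that make serine, pass its carbon to folate and turn its backbone into cysteine were followed in human myeloid cells after induction of EVI1, a zinc finger transcription factor overexpressed in aggressive myeloid leukemia. The set comprises 10 genes, PHGDH, PSAT1, PSPH, SHMT1, SHMT2, MTHFD1, MTHFD2, MTHFD1L, CTH and CBS, out of 17860 genes tested. All probe sets whose only gene symbol in the array annotation was one of these 10 were taken, which gave 22 of the 54675 probe sets. Of these, 21 passed the intensity filter and 1 of MTHFD1 (239846_at, log2 2.30 to 2.85 over the arrays) did not, so that every gene kept at least 1 probe set. For each gene the passing probe set with the highest mean stands for the gene unless another is named.

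The cells were derivatives of U937, a leukemia cell line of the myeloid lineage. U937T_EVI1-HA clones E10 and E14 carry a human EVI1 cDNA with an HA tag whose transcription is held down by tetracycline (tet) and rises after tet withdrawal, and each is 1 clone. U937T_vec clone P2 carries the empty vector and U937T is the parental line, and both served to show what tet withdrawal does without EVI1. All cultures were washed and put into medium either with tet at 1 μg/ml or without it. E10 and E14 were harvested 6, 12, 24 and 48 h later and P2 and U937T at 48 h, which gave 16 arrays of EVI1 clones and 4 of control lines, 20 in all. There was a single array for each line, time and condition. E10 and E14 are thus the 2 replicates of each EVI1 group, and P2 and U937T are those of each control group. Line was a block in the model. The p-values therefore measure the spread left after constant differences between lines are removed, pooled over all 10 groups and moderated over genes.

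Serine is built from an intermediate of glycolysis by PHGDH, PSAT1 and PSPH in turn. The hydroxymethyltransferases SHMT1, in the cytosol, and SHMT2, in mitochondria, split serine into glycine and a one-carbon unit carried on folate, and MTHFD2 and MTHFD1L in mitochondria and MTHFD1 in the cytosol oxidize and hand on this unit for the synthesis of purines, thymidylate and methionine. CBS joins serine to homocysteine and CTH releases cysteine from the product, the route called transsulfuration. In many proliferating cells several of these enzymes, though not all, are induced together by the transcription factor ATF4 when amino acids run short. Some are also activated by MYC.

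The label of the lines was checked first on EVI1 itself, whose locus is named MECOM on the array. Its probe set 221884_at read log2 7.06 to 7.34 in E10 and E14 with tet, 8.52 and 8.63 at 6 h without tet, and 10.51 (E10) and 9.98 (E14) at 48 h without tet, against 5.91 to 6.90 in P2 and U937T. The clones with tet thus read above the control lines. The other 4 probe sets of MECOM read 2.38 to 3.68 on all 20 arrays, with and without tet. Of the myeloid marker genes measured, 9 had a mean log2 level over 7 and MPO was at 4.97. Of the lymphoid markers measured only CD79A was over 7 (7.89), and none of the measured erythroid, megakaryocyte, epithelial or fibroblast markers was. The difference between the 3' and 5' control probe sets of actin and GAPDH, a sign of RNA integrity, was 0.19 to 1.52 with a median of 0.71, and it was highest in E14 at 24 h (1.52 with and 1.40 without tet).

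At 48 h after tet withdrawal 7 of the 10 genes were lower in E10 and E14 without than with tet and none was higher. PSAT1 and CTH fell most, by 1.92 and 2.34 on the log2 scale, followed by CBS, MTHFD1, SHMT2, MTHFD2 and PHGDH, which fell by 1.18 to 0.74, whereas PSPH, SHMT1 and MTHFD1L did not pass the test. Over all genes 14.7% were lower and 16% higher by the same test, the limma fit with Benjamini-Hochberg adjustment over 17860 genes and a threshold of 0.05. The median log2 change was -0.82 over the 10 members and -0.04 over all genes. In these bulk samples a lower level per cell and a smaller share of cells with the transcript cannot be told apart.

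Of the 3 enzymes of serine synthesis, PSAT1, the aminotransferase of the second step, changed most. It read log2 11.49 with and 9.73 without tet in E10 at 48 h, and 11.73 with and 9.65 without tet in E14. The levels without tet were below those of all 18 other arrays, of which the lowest was 10.72. This is a 3.79-fold lower level (log2 change -1.92, SE 0.10, n = 2 lines, adjusted p = 9.16e-09 by limma). PHGDH, the dehydrogenase of the first step, went from 11.01 to 10.35 in E10 and from 10.94 to 10.13 in E14. Its change was -0.74 (SE 0.11, limma adjusted p = 1.11e-04), and without E14 it was -0.66 with an adjusted p of 0.0723. It has no other probe set of its own. A bright one that carries PHGDH together with MZT2A and MZT2B (212995_x_at) read 11.88 and 11.81 in E10 and 11.79 and 11.78 in E14 with and without tet, a change of -0.04 (limma adjusted p = 0.799), and did not follow it. PSPH, the phosphatase of the last step, read 9.56 and 9.58 in E10 and 9.72 and 9.49 in E14 with and without tet, a change of -0.10 with a 95% interval from -0.51 to 0.31.

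Of the enzymes of the folate-bound one-carbon unit, mitochondrial SHMT2 and MTHFD2 and cytosolic MTHFD1 fell. SHMT2 read 12.61 with and 11.77 without tet in E10 and 12.59 with and 11.78 without tet in E14, so that both clones differed by nearly the same amount (log2 change -0.83, SE 0.10, limma adjusted p = 2.2e-05). MTHFD2 went from 12.02 to 11.27 and from 12.16 to 11.29, a 1.75-fold lower level (limma adjusted p = 9.77e-06). MTHFD1, the cytosolic enzyme with 3 activities in 1 protein, went from 11.37 to 10.41 and from 11.39 to 10.30 and was 2.04-fold lower (limma adjusted p = 7.63e-07).

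Under the rule of 1 gene symbol, SHMT1 and MTHFD1L were read by dim probe sets alone. The probe sets that stand for them read log2 3.73 to 4.49 and 3.87 to 4.82 over the 20 arrays. Their changes at 48 h were 0.02 (95% interval -0.32 to 0.36) and -0.11 (-0.64 to 0.42), and for MTHFD1L E10 and E14 differed in sign (-0.58 and 0.36). A further 2 probe sets carry the symbol SHMT1 together with MIR6778, and 2 carry MTHFD1L together with LOC101928195 and LOC100996643. Like the shared probe set of PHGDH they are no members, since the annotation gives them several symbols. Whether their signal comes from 1 gene was not tested. The pair with SHMT1 was brighter, at 7.99 and 7.90 (209980_s_at) and 10.06 and 9.96 (224954_at) in E10 with and without tet at 48 h. In a fit over all probe sets it changed by -0.22 and -0.03 in E10 and E14 at 48 h and was not called. The pair with MTHFD1L fell by 2.03 (225520_at) and 2.05 (231094_s_at), from 10.67 to 8.67 in E10 and from 10.67 to 8.61 in E14 on the former. In P2 and U937T this pair changed by -0.72 and -0.66. The difference of the responses was -1.32 and -1.39 (limma adjusted p = 9.06e-04 and 0.00121). The dim member probe sets of MTHFD1L showed no such fall, and whether they could register one was not tested.

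Both transsulfuration enzymes fell. CTH, which releases cysteine, went from 9.10 to 6.88 in E10 and from 9.26 to 6.80 in E14, a 5.05-fold lower level and the largest change among the 10 genes (log2 change -2.34, SE 0.14, limma adjusted p = 2.61e-08). CBS, the enzyme before it, went from 9.06 to 8.10 in E10 and from 9.47 to 8.07 in E14, a 2.26-fold lower level (limma adjusted p = 1.32e-05), and here the clones differed more, by 0.96 and 1.40. For 6 of the 10 genes both EVI1 arrays without tet at 48 h lay below all 18 other arrays, the exception among the 7 called being PHGDH, whose E10 level of 10.35 was above the lowest other level of 10.29. Of all genes 11% lay below in this way.

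**Figure D1:**
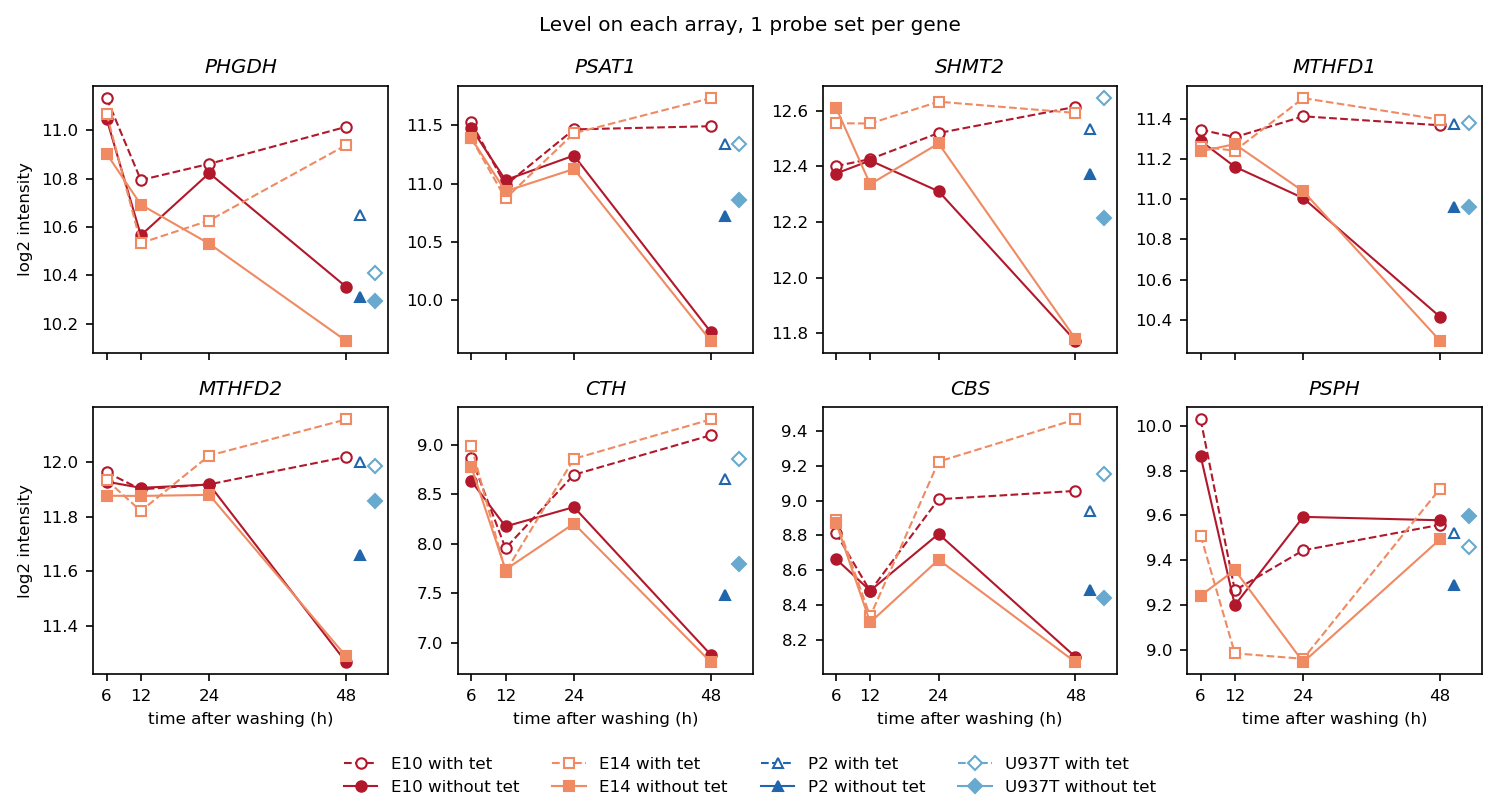
Log2 intensity of 8 members on every array against the time after washing in hours. Open symbols and dashed lines are cultures with tet, filled symbols and full lines those without, E10 and E14 are red and orange, and the blue points of P2 and U937T, all at 48 h, are drawn to the right. In PSAT1 and CTH the filled E10 and E14 points at 48 h sit at 9.65 to 9.73 and 6.80 to 6.88, below all other points, while in PSPH filled and open points overlap.

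Part of the set was lower in the control lines too. In P2 and U937T at 48 h 4 of the 10 genes fell without tet, PSAT1, MTHFD1, CTH and CBS, and none rose, beside 5.3% of all genes lower and 5.41% higher. The median change was -0.27 over the 10 genes, against -0.02 over all genes. PSPH (-0.05), SHMT1 (-0.09) and MTHFD1L (-0.13) changed little and did not pass. With and without tet, CTH read 8.65 and 7.49 in P2 and 8.86 and 7.80 in U937T (log2 change -1.11, SE 0.14, limma adjusted p = 2.26e-04). PSAT1 changed by -0.62 in P2 and -0.48 in U937T (limma adjusted p = 0.00352), MTHFD1 by -0.41 and -0.42 (limma adjusted p = 0.00851) and CBS by -0.45 and -0.71 (limma adjusted p = 0.0151). The values of SHMT2 (-0.30), MTHFD2 (-0.23) and PHGDH (-0.23) did not pass. Fewer members were called without any 1 line, as over all genes, and a fit without P2 or U937T rests on 1 control line. With the 8 arrays at 48 h fitted alone CTH was the 1 member called. Of 17860 genes 324 were then lower, against 946 with all arrays.

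The response of the EVI1 clones exceeded that of the control lines in 5 genes, which is the test of the difference itself. They were PSAT1, SHMT2, MTHFD1, MTHFD2 and CTH, all with a larger decrease in E10 and E14, beside 3.03% of all genes with a lower and 2.43% with a higher response. The median difference of the responses was -0.55 over the 10 genes and -0.00 over all genes. For PSAT1 the responses were -1.76 in E10 and -2.08 in E14 against -0.62 in P2 and -0.48 in U937T, a difference of -1.38 (SE 0.14, limma adjusted p = 8.91e-05). For CTH they were -2.22 and -2.45 against -1.17 and -1.06, a difference of -1.22 (SE 0.20, limma adjusted p = 0.00209). The clones and the control lines did not overlap in either gene. These genes have the largest differences of the set, and the share of all genes without overlap was not counted.

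The other differences were smaller. MTHFD1 differed by -0.61 (limma adjusted p = 0.0108), MTHFD2 by -0.57 (limma adjusted p = 0.0185) and SHMT2 by -0.53, close to the threshold (limma adjusted p = 0.0491). PHGDH differed by -0.51 (95% interval -0.84 to -0.18, limma adjusted p = 0.0784) and CBS by -0.59 (-1.01 to -0.17, limma adjusted p = 0.104), which did not pass. These calls rest on all 4 lines. Fewer members were called without any 1 of them, as over all genes, and such a fit leaves 1 array in some groups. When the 8 arrays at 48 h were fitted alone 2 members were called, beside 195 of 17860 genes lower (541 with all arrays). PSAT1 differed by -1.22 to -1.53 and CTH by -1.11 to -1.34 whichever line was left out.

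**Figure D2:**
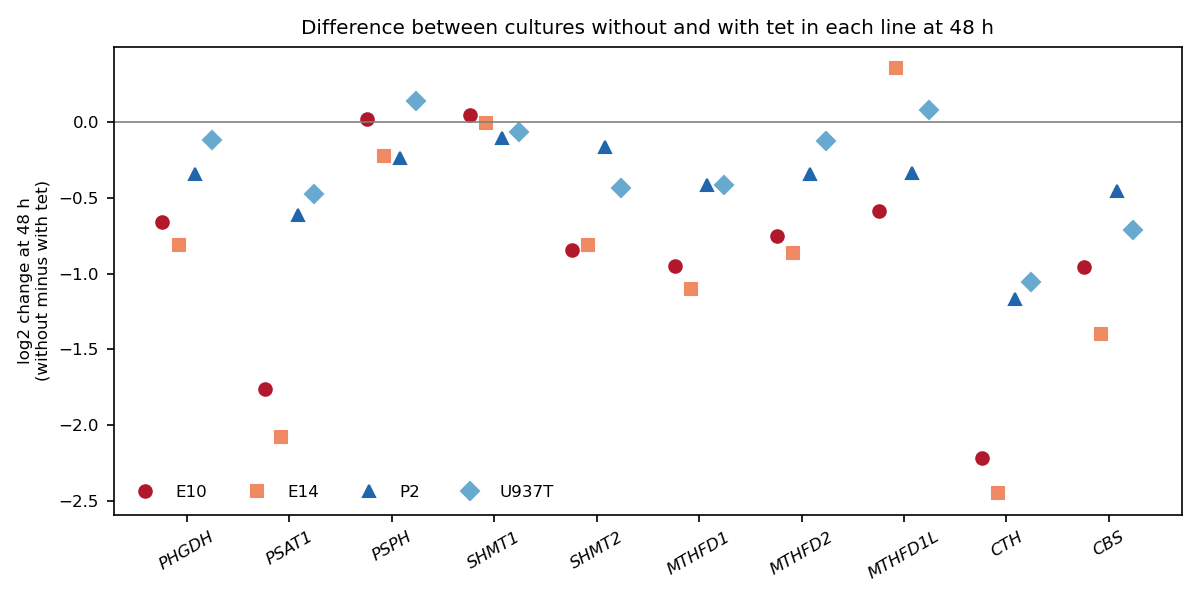
Log2 change at 48 h, without minus with tet, of the 10 members in each line, with 1 point per line (circles E10, squares E14, triangles P2, diamonds U937T). PSAT1 and CTH show the widest gap between the EVI1 clones (-1.76 and -2.08, and -2.22 and -2.45) and the control lines (-0.48 to -0.62, and -1.06 to -1.17).

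PSAT1, CTH and MTHFD1 are shown with the 250 bases before their annotated start in RefSeq (GRCh38.p14), since they were called in E10 and E14, in the control lines and in the difference. They lie at chr9:78296875-78297124, chr1:70411018-70411267 and chr14:64388103-64388352, all on the + strand, and are printed 5' to 3' with the E-box CACGTG in capitals:
PSAT1: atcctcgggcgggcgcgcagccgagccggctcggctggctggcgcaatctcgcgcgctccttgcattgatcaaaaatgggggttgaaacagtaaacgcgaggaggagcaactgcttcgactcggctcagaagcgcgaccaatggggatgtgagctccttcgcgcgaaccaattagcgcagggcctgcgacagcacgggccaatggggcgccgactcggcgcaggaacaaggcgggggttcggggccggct
CTH: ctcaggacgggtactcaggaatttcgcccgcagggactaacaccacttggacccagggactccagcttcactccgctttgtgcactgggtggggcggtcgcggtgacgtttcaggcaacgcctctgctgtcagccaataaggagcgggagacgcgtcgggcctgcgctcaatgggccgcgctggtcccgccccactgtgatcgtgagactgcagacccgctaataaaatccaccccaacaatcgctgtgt
MTHFD1: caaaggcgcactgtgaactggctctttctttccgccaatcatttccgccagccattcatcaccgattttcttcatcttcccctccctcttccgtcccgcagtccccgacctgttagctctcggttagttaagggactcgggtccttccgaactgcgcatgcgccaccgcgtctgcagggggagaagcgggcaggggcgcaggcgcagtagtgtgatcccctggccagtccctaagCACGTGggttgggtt

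The E-box, the element bound by MYC and its partner MAX, was found in MTHFD1, beginning 15 bases before the start. Of the 10 genes 8 had a window in the promoter table, 13 windows in all of 250 bases before and 50 after a start, and PSPH and SHMT2 had none. Both strands were searched for CACGTG, for TGATGNAA, the core of the element bound by ATF4 with C/EBP partners, and for GACAAGATA, a motif of the first zinc finger domain of EVI1. MTHFD1L held CACGTG and TGATGNAA in 3 overlapping windows of its 4, and no other member window held any of the 3. Over all 35116 windows CACGTG was found in 7.26%, TGATGNAA in 3.62% and GACAAGATA in 0.0968%. The windows of PSAT1, CTH, MTHFD2 and MTHFD1 held 37, 26, 27 and 20 CpG dinucleotides, against a median of 14 over all windows, and that of PHGDH held 15. Those of genes that were not called held 23 in SHMT1 and 40, 40, 41 and 5 in MTHFD1L, and those of CBS held 4, 32 and 50.

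Calls came late. At 6 h and at 12 h no member was called in either direction by limma, nor had any an unadjusted p under 0.05 on the probe set that stands for it. Of the 21 member probe sets 2 had one at 6 h, 206085_s_at of CTH (-0.48, unadjusted p = 0.0321) and 234976_x_at of MTHFD2 (-0.40, unadjusted p = 0.047), both with a limma adjusted p of 0.946, and none had at 12 h. At 6 h no gene at all was called, 0% higher and 0% lower (276 and 310 genes at an unadjusted p under 0.05), and at 12 h 0.0168% of genes were higher and 0.0112% lower. At 24 h MTHFD1 and CTH were lower and none was higher, beside 9.16% and 7.97% of all genes. MTHFD1 changed by -0.41 in E10 and -0.46 in E14 (limma adjusted p = 0.00347) and CTH by -0.33 and -0.65 (limma adjusted p = 0.0244), while PSAT1 (-0.27) and CBS (-0.38) did not pass. Neither gene was called at 24 h in fits that left 1 clone at this time, in which most calls over all genes were lost too. The E14 arrays at 24 h have the highest 3' to 5' difference. With this difference as a covariate both genes were called, beside 1895 of 17860 genes lower. In the fit over all probe sets MTHFD1 was called and CTH was not (limma adjusted p = 0.0521).

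The step from 24 to 48 h was tested as the difference of the responses, and the same 7 genes that were lower at 48 h had a larger decrease then than at 24 h. Of all genes 1.63% were called lower and 2.07% higher in this test. The difference was -1.66 for PSAT1 (SE 0.14, limma adjusted p = 4.9e-05) and -1.84 for CTH (SE 0.20, limma adjusted p = 1.92e-04), and between -0.59 and -0.80 for the other 5. In the fit over all probe sets 5 of the 21 member probe sets were called lower, beside 200 of 46203. They belong to PSAT1, SHMT2, MTHFD2 and CTH. There PHGDH (limma adjusted p = 0.0765), MTHFD1 (0.0547), CBS (lowest 0.0974) and 214096_s_at, which stands for SHMT2 (0.0665), did not pass. In the gene fit fewer were called without E10, without E14 or without the E14 arrays at 12 and 24 h, as over all genes. Each of these fits leaves 1 array in some EVI1 groups. From 24 to 48 h PSAT1 went from -0.22 to -1.76 in E10 and from -0.31 to -2.08 in E14. CTH went from -0.33 to -2.22 and from -0.65 to -2.45. With tet no member was called between 48 and 6 h in E10 and E14 on the probe set that stands for it, beside 3.1% of genes higher and 4.07% lower. CBS had the largest such value (0.41, unadjusted p = 0.0103, limma adjusted p = 0.0922). Its probe set 240517_at was called higher (0.70, limma adjusted p = 0.022), the only one of the 21 member probe sets, beside 4.1% of all probe sets, and so was CBS by the mean of its probe sets (0.45, limma adjusted p = 0.0309).

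Levels at 12 h were low with and without tet. For PHGDH, PSAT1, CTH and CBS all 4 arrays of E10 and E14 at 12 h lay below all 4 at 6 h, which held for 6.37% of all genes. This comparison was made after the values were seen and was not tested. CTH read 8.63 to 8.99 at 6 h, 7.71 to 8.17 at 12 h and, with tet, 8.70 and 8.86 at 24 h. PSAT1 read 11.39 to 11.53 at 6 h, 10.87 to 11.03 at 12 h and, with tet, 11.47 and 11.43 at 24 h. Its probe set 220892_s_at did not meet the rule, with 9.31 to 10.99 at 6 h, 8.51 to 9.51 at 12 h and, with tet, 9.42 and 8.42 at 24 h. For CTH 206085_s_at met it, with 7.66 to 8.19 at 6 h and 6.36 to 6.95 at 12 h, but read 7.37 and 6.87 with tet at 24 h. There were no arrays of P2 or U937T at 12 h.

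Probe sets of 1 gene mostly moved together, with PSPH and the dim MTHFD1L as exceptions. At 48 h 1561125_at of MTHFD1L changed by -0.58 in E10 and 0.36 in E14, and 225518_x_at by 0.08 and -0.40. In a fit over the 46203 probe sets that passed the filter, 15 of the 21 member probe sets were lower in E10 and E14 at 48 h. None was higher, and 9.95% of all probe sets were lower. Fewer member probe sets were called without E10 or without E14, which leaves 1 array in each EVI1 group. Both probe sets of CTH fell (-2.34 and -2.26), as did both of PSAT1 (-1.92 and -2.54), all 3 of SHMT2 (-0.83, -0.99 and -1.20), both of MTHFD2 (-0.81 and -1.26) and all 3 of CBS (-1.18, -1.11 and -0.51). For PSPH, 205048_s_at stands for the gene and did not change, but 205194_at went from 8.21 to 7.52 in E10 and from 8.55 to 7.59 in E14 (log2 change -0.82, SE 0.15, limma adjusted p = 0.00141). In P2 and U937T it changed by 0.00 and -0.15, and the difference of the responses was -0.75 (limma adjusted p = 0.104).

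In the test of the difference from the control lines 7 member probe sets were called lower, beside 1.29% of all probe sets, and they belong to PSAT1, SHMT2, MTHFD1, MTHFD2 and CTH. SHMT2 was called there by 214437_s_at and 214095_at (limma adjusted p = 0.0354 and 0.041) and not by 214096_s_at, which stands for the gene (0.11). These calls were lost when E10 or E14 was left out, which leaves 1 array in each EVI1 group, and were fewer without P2 or U937T. In the gene fit calls over all genes were then fewer too.

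**Figure D3:**
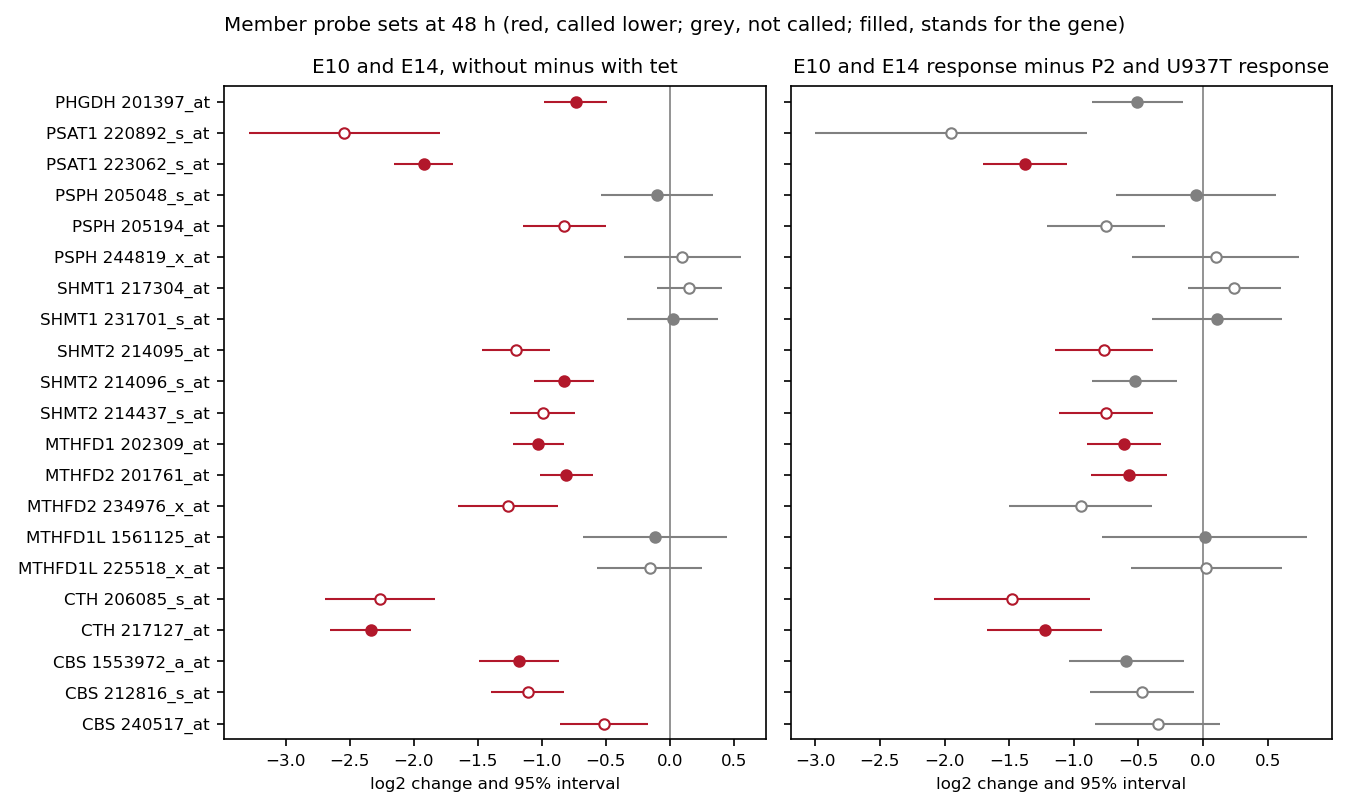
Log2 change with its 95% interval of the 21 member probe sets at 48 h, in E10 and E14 (left) and as the difference from the response of P2 and U937T (right). Red points were called lower, grey points were not called, and filled points stand for their gene; 15 points are red on the left and 7 on the right.

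The genes around this pathway were taken as 4 lists, read at 48 h against the same shares of all genes (14.7% lower and 16% higher in E10 and E14, 5.3% lower and 5.41% higher in P2 and U937T, 3.03% lower in the difference). Purine synthesis, which consumes glycine and formyl-folate, had 11 of 12 measured enzymes lower in E10 and E14 and none higher, with a median of -0.91, and 7 lower in P2 and U937T. PFAS, which adds nitrogen from glutamine, fell by 1.81, GART, which adds glycine and a formyl group, by 1.19, ATIC, which adds the last formyl group, by 1.11 and ADSL by 1.03. Of the 12, 6 had a larger decrease in E10 and E14 than in the control lines, and IMPDH1 (0.02) did not pass.

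Of 19 measured enzymes and carriers of glycine cleavage and folate, 9 were lower and 2 higher in E10 and E14, with a median of -0.38, and 5 were lower in the control lines. ALDH1L2, the mitochondrial formyl-folate dehydrogenase, read 7.60 and 5.17 with and without tet in E10, 7.84 and 4.88 in E14, 7.37 and 6.26 in P2, and 7.33 and 6.65 in U937T, a difference of the responses of -1.80 (limma adjusted p = 0.00035). GCSH, the carrier protein of the glycine cleavage system, differed by -1.57 (limma adjusted p = 3.45e-04), and these 2 were the only ones called in the difference. The folate carrier SLC19A1 fell by 1.17 and SLC25A32, which brings folate into mitochondria, by 1.04 in E10 and E14. TYMS, which makes thymidylate, changed by 0.10 and did not pass.

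Of 21 genes of the methionine cycle, transsulfuration and glutathione, 6 were lower and 2 higher in E10 and E14 with a median of -0.06, and 1 was lower and 2 were higher in the control lines. SLC3A2, the chain shared by amino acid exchangers, fell by 1.34, AHCY, which releases homocysteine, by 0.89 and MAT2A, which makes S-adenosylmethionine, by 0.77, and SLC3A2 and MAT2A were called in the difference (limma adjusted p = 0.00739 and 0.0324). ETHE1, a mitochondrial enzyme of sulfide oxidation, rose by 1.29 in E10 and E14 and by 0.65 in P2 and U937T, and SQOR, the mitochondrial sulfide quinone oxidoreductase, by 0.93 and 0.44. Neither was called in the difference. The glutathione synthesis enzymes GCLC (0.16) and GCLM (0.16) did not pass.

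The last list held transcription factors and genes known as targets of ATF4. Of 16, 8 were lower and 2 higher in E10 and E14 with a median of -0.46, 5 were lower in the control lines, and 6 had a larger decrease in E10 and E14. With and without tet MYC read 11.28 and 7.87 in E10, 11.37 and 7.84 in E14, 11.24 and 10.16 in P2, and 11.24 and 10.50 in U937T, a difference of the responses of -2.56 (limma adjusted p = 1.8e-05). ATF4 fell by 0.86 in E10 and E14 and by 0.36 in P2 and U937T, and the difference was -0.50 (limma adjusted p = 0.0417). EIF4EBP1, a repressor of translation, fell by 1.85, ALDH18A1 of proline synthesis by 1.33 and ASNS, the asparagine synthetase, by 1.26 in E10 and E14. The stress genes DDIT3 (-0.03) and DDIT4 (-0.25) and the proline enzyme PYCR1 (-0.01) did not pass, and ATF3 rose by 0.80. Of the same list TRIB3 changed by -0.84 in E10 and -1.03 in E14, CHAC1 by -0.91 and -1.09 and SESN2 by -0.62 and -0.73.

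**Figure D4:**
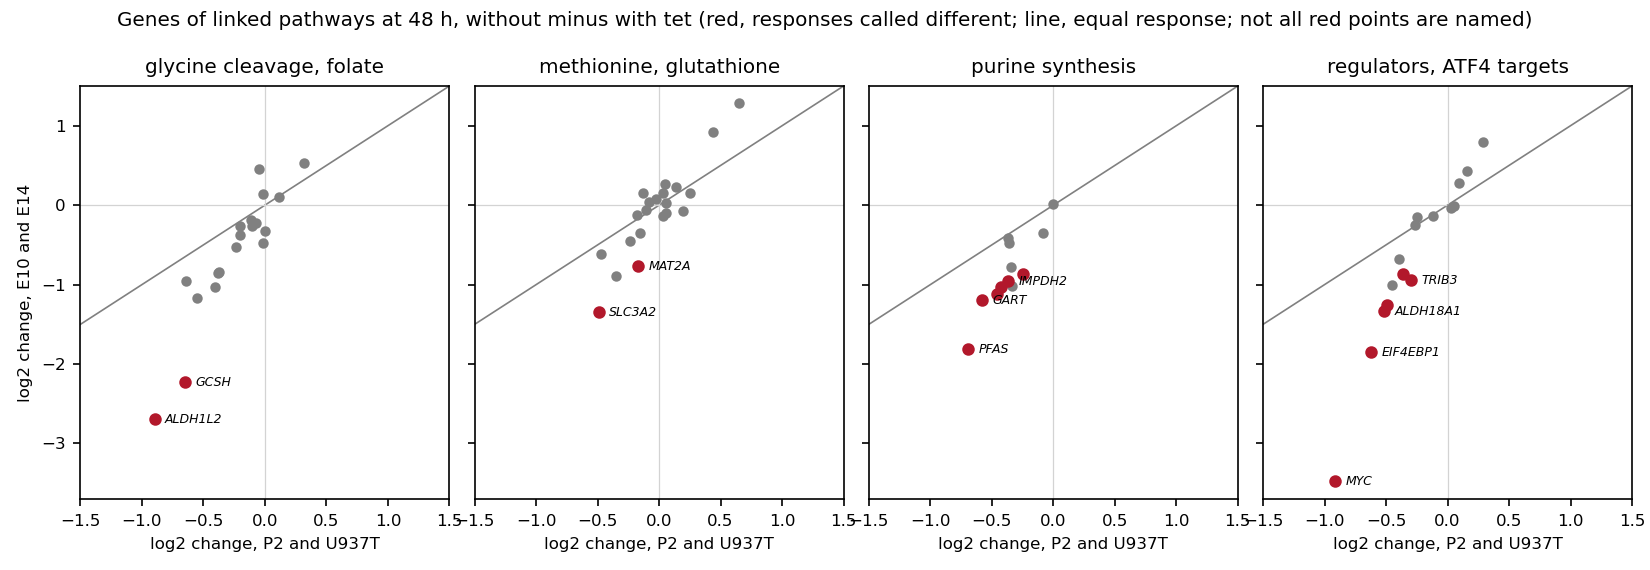
Log2 change at 48 h in E10 and E14 (vertical axis) against that in P2 and U937T (horizontal axis) for the genes of the 4 lists, with 1 point per gene and a line where both responses are equal. Red points were called in the difference of the responses; MYC (-3.47 against -0.91) and ALDH1L2 (-2.69 against -0.90) lie farthest below the line.

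The 7 called genes were compared with all genes over the 10 differences without minus with tet, 1 per line and time. Between any 2 of the 7, Pearson's r was 0.75 (PHGDH and SHMT2) to 0.99 (PSAT1 and MTHFD2). The 7 were chosen by their fall at 48 h, which is among the 10 differences, so a high r between them is in part built in. The genes most like PSAT1 were CD320, the cellular receptor for vitamin B12 on its carrier, ELANE, neutrophil elastase, and PAICS of purine synthesis (r = 0.99 each). Those most like CTH were ASNS (r = 0.987), ASS1, the argininosuccinate synthase, and TUFM, a mitochondrial elongation factor (r = 0.977 each). MTHFD1 was most like MRPL3, a mitochondrial ribosomal protein (r = 0.997), IARS1, an aminoacyl-tRNA synthetase (r = 0.995), and EIF4EBP1 (r = 0.992).

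MTHFD2 was most like PSAT1 (r = 0.986) and the chaperones HSPH1 and HSP90AB1 (r = 0.984 and 0.982). PHGDH was most like RARS1, an aminoacyl-tRNA synthetase (r = 0.985), MCM2 of the replicative helicase (r = 0.979) and HSP90AB1 (r = 0.973). SHMT2 was most like WRAP53, ATP2A1-AS1 and the aminoacyl-tRNA synthetase WARS1 (r = 0.993, 0.987 and 0.984). CBS was most like RAC3, a small GTPase (r = 0.984), PCK2, the mitochondrial phosphoenolpyruvate carboxykinase (r = 0.981), and MTO1 (r = 0.974). The 10 points come from 4 lines and all genes share their arrays, and the values are given as a description.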

How the data were processed

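RNA from E10, E14, P2 and U937T cells was hybridized to HG-U133 Plus 2.0 arrays. The deposited values are log2 intensities, made by the authors with Robust Multi-array Analysis, whose quantile step makes levels relative to each array. They were used without further normalization. Following the study's methods, a probe set was kept if its mean log2 over the cultures with and without tet reached 3 in every line at 48 h and in both EVI1 clones at 24 h. The study asked further for a gene annotation. Here exactly 1 gene symbol was required, a stricter condition that leaves out probe sets annotated with several symbols. The brightest such probe set stood for its gene. The model (limma 3.58.1, R 4.3.3) had 10 groups and line as a block, 8 residual degrees of freedom, 8 contrasts, and p-values adjusted over 17860 genes by Benjamini-Hochberg. It was tested on simulated data.

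The members, the 4 lists, the motifs and the tests were chosen with earlier results of these data known. Named genes are the members, up to 4 called genes of each list by size of change, and the 3 genes most like each called member. Others were named for their role after their values were seen: TYMS, GCLC, GCLM, MAT2A, ATF4, DDIT3, DDIT4, PYCR1, ATF3, IMPDH1, TRIB3, CHAC1 and SESN2. Some genes of the lists are not reported here. The number of arrays limits the precision. Alternatives covered the filter, probe set choice, centring, variance model, block, the arrays fitted, each line left out, and a covariate for the 3' to 5' difference.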

Additional observations from a re-analysis of the deposited data

Results flagged for a closer look

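The responses of the EVI1 clones and the control lines differed by the test of the difference for PSAT1 (-1.38), SHMT2 (-0.53), MTHFD1 (-0.61), MTHFD2 (-0.57) and CTH (-1.22). In E10 and E14 the responses at 48 h and at 24 h differed for PHGDH (-0.67), PSAT1 (-1.66), SHMT2 (-0.65), MTHFD1 (-0.59), MTHFD2 (-0.74), CTH (-1.84) and CBS (-0.80). All values are log2 differences from limma, negative where the decrease was larger in E10 and E14 or at 48 h.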

How the results depend on the processing

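No result changed direction while called. Of the 7 genes lower in E10 and E14 at 48 h, 6 were called under all 16 alternatives and PHGDH under 15. With 1 line left out some groups hold 1 array, so counts of called members are not given. In the control lines and in the difference of the responses fewer members were then called, as over all genes. The same held at 24 h and for 48 against 24 h without E10 or E14. A lone line was then assumed to vary like the rest. With the arrays at 48 h only, 1 gene was called in the control lines and 2 genes and 1 probe set in the difference. Without the E14 arrays at 12 and 24 h the counts were 0 at 24 h, 2 for 48 against 24 h, and 3 genes and 4 probe sets in the difference. With the probe set of largest spread 1 gene was called at 24 h, and with the mean of a gene's probe sets CBS (0.45) was the 1 gene called with tet at 48 against 6 h. With no replicate block 4 genes were called in the difference, all of these 4 lower. Some settings added calls. PHGDH was called in the difference with a mean of at least 5 over all arrays (limma adjusted p = 0.0495), with intensity trend and robust estimation (0.0324) and with the 3' to 5' covariate (0.0323). With trend and robust estimation 6 members were called in the control lines, beside 1108 of 17860 genes lower. The causes were not tested. SHMT2's difference of the responses was called under 5 of 15 alternatives. The block pairs cultures of 1 line and not numbered replicates.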
